A study of Arabidopsis thaliana with 2 samples.

Results

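JAZ1 to JAZ10 are the core members of the JASMONATE ZIM-DOMAIN family of Arabidopsis thaliana, and the 10 genes were taken by their locus identifiers out of 27444 protein-coding genes on the 5 chromosomes. The chromatin around each was read from MH-seq, which sequences the short pieces of DNA that a mild treatment with micrococcal nuclease (MNase) releases from fixed nuclei. Nucleosomes protect longer pieces, and the short ones come chiefly from accessible DNA held by regulatory proteins. Each MNase hypersensitive site (MHS) in the lists is a stretch where these short pieces piled up, read here as open chromatin. All nuclei came from whole seedlings of wild-type Columbia (Col-0) grown for 2 weeks, and no mutant or transgene is named for either library. The series holds 2 libraries of this material, replicate 1 and replicate 2, and no other group, so no condition could be compared with another. Whole seedlings mix roots, leaves and meristems, and an MHS present in some cells cannot be told apart from a weaker MHS in all of them.

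JAZ proteins are repressors. In cells with little jasmonate they hold the transcription factor MYC2 and its relatives in check, recruiting the adaptor NINJA and the corepressor TOPLESS. The active hormone, jasmonoyl-isoleucine, joins a JAZ protein to the F-box protein COI1, the JAZ protein is degraded and MYC2 is released. MYC2 binds the G-box, and the JAZ genes are themselves among the genes it activates, which makes the family a negative feedback loop known for its quick rise after wounding. No wounding or hormone is named for the seedlings measured here.

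Each MHS list gave only a start and an end per site, with no read count or height. The length of an MHS therefore gives the width of the listed stretch, and its strength is not known. Replicate 1 held 70046 MHSs and replicate 2 held 49934. For each gene the window ran from 3 kb upstream of the transcription start site (TSS) to 1 kb past the transcription termination site (TTS), with gene limits from the RefSeq annotation of the TAIR10.1 assembly, and positions below are counted from 1 on that assembly. An MHS counted as shared when it overlapped an MHS of the other replicate by at least 1 bp.

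The 10 windows held 80 MHSs in replicate 1 and 61 in replicate 2. No JAZ window was without an MHS in either replicate. Few genes lack one, as 5.09% of all protein-coding genes had none in replicate 1 and 9.25% in replicate 2. The number per gene lay between 3 and 11 in replicate 1 with a median of 9, where all protein-coding genes had a median of 4. In replicate 2 it lay between 2 and 9 with a median of 6, against 3 over all genes. JAZ6, JAZ9 and JAZ10 had the most in replicate 1 with 11 MHSs each, and JAZ1 had the most in replicate 2 with 9. JAZ8 had 4 and 2, the fewest in replicate 2, and JAZ2 had 3 and 6.

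The replicates divided some open stretches differently. At JAZ2, the MHS of 1013 bp in replicate 1 was the longest at any JAZ gene, and the same stretch was listed as 3 MHSs in replicate 2. At JAZ9 the reverse was seen, with a pair of neighbouring MHSs in replicate 1 listed as a joined MHS of 669 bp in replicate 2. Over the 10 genes, the number of MHSs per window had a Pearson r of 0.48 between the replicates, whereas the percent of the window covered had an r of 0.94 and the covered bases of the 1 kb upstream an r of 0.97. These are descriptions over 10 genes that share the same pair of libraries, and the corresponding values over all 27444 genes were 0.76, 0.91 and 0.85. The upstream regions are therefore described by covered bases, and counts of MHSs per window are given beside them for the pathway genes.

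**Figure D1:**
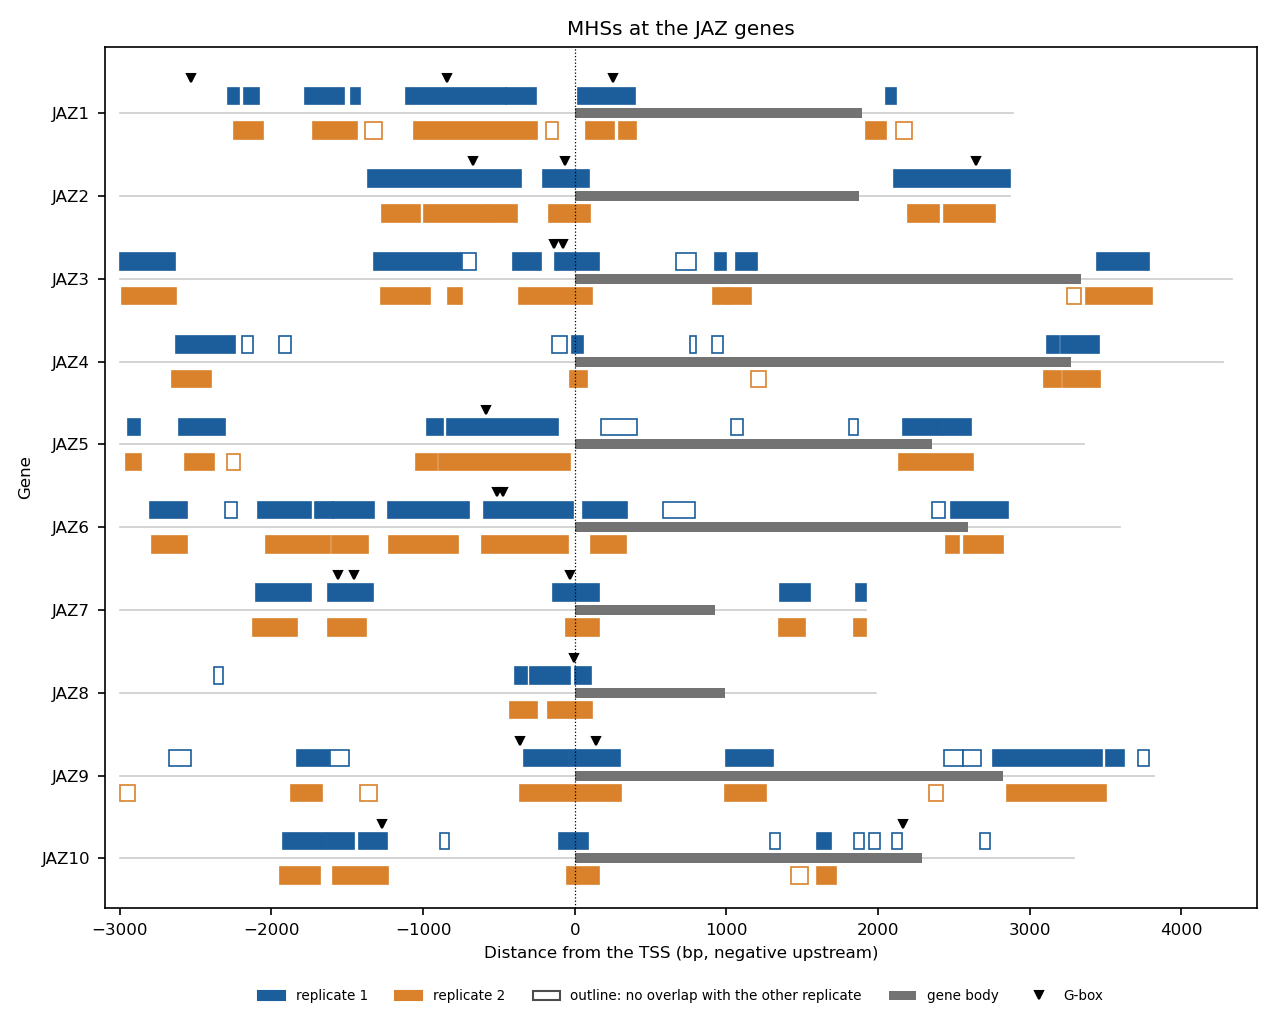
MHSs of replicate 1 (blue) and replicate 2 (orange) at the 10 JAZ genes, drawn by their distance in bp from the TSS, with genes all pointing to the right. Filled boxes overlap an MHS of the other replicate, outlined boxes do not, grey bars are gene bodies and triangles are G-boxes. Wide filled boxes lie upstream of JAZ1, JAZ2, JAZ5 and JAZ6, while the bodies of JAZ5 and JAZ10 hold several outlined ones.

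The 1 kb upstream of the TSS split the family. All 10 JAZ genes had an MHS there that was shared by the replicates, where 70.4% of all protein-coding genes did. At JAZ1, JAZ2, JAZ3, JAZ5 and JAZ6 at least 500 bp of this kilobase was covered in each replicate. These were 5 of the 10 genes, against 8.56% of all protein-coding genes. The lowest of them was JAZ3 with 512 bp in replicate 2. By the lower value of each gene, the next below the limit was JAZ8, with 343 bp in replicate 1 and 352 bp in replicate 2. JAZ9 followed with 323 bp in replicate 1 and 364 bp in replicate 2. JAZ8 and JAZ9 lay in the middle, and JAZ4, JAZ7 and JAZ10 had less than the median gene in both replicates. The mean over the 10 genes was 508 bp in replicate 1 and 473 bp in replicate 2, against 264 and 210 bp over all genes, but with the family spread over this range the mean describes few of its members.

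**Figure D2:**
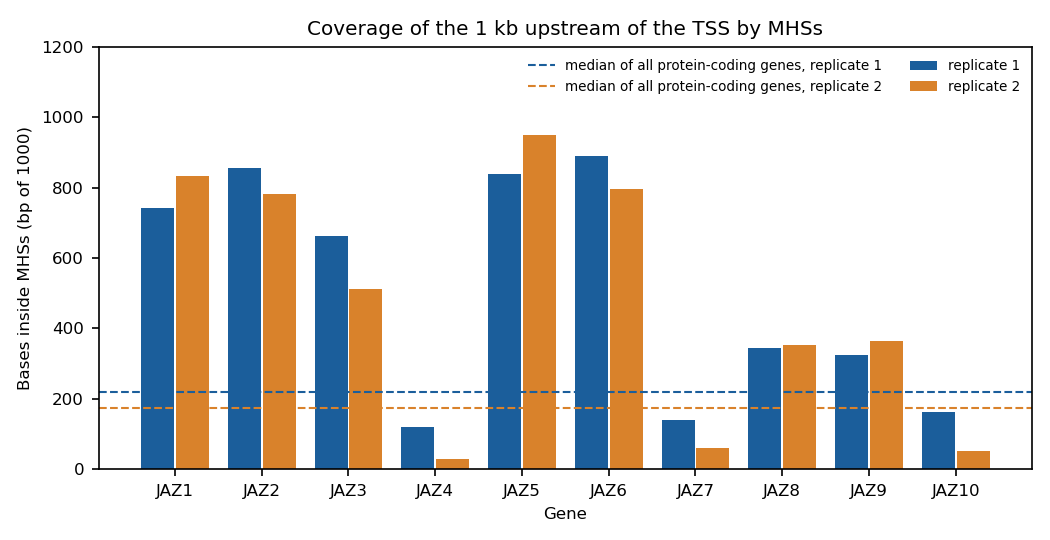
Bases of the 1 kb upstream of the TSS that lay inside MHSs, for each JAZ gene in replicate 1 (blue bars) and replicate 2 (orange bars), with the median of all protein-coding genes as a dashed line in the same colour (220 and 174 bp). Bars of JAZ1, JAZ2, JAZ3, JAZ5 and JAZ6 stand above 500 bp in both replicates, and those of JAZ4, JAZ7 and JAZ10 lie below the median lines.

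JAZ1 (AT1G19180) and JAZ2 (AT1G74950) form a paralog pair and belong to the JAZ proteins that carry the full set of domains for binding COI1 and repressing MYC2. JAZ1 lies on the plus strand at chr1:6621777-6623668. Of its 1 kb upstream, 741 bp was covered in replicate 1 and 833 bp in replicate 2, and 3.85% and 0.63% of all protein-coding genes reached as much. The cover came from MHSs of 656 bp (chr1:6620667-6621322) and 195 bp (chr1:6621325-6621519) in replicate 1, and of 809 bp (chr1:6620720-6621528) in replicate 2. A further MHS of 81 bp (chr1:6621589-6621669) was listed in replicate 2 only and is part of the cover there. The open stretch ended short of the TSS, and the TSS base itself was in no MHS of either replicate. Open chromatin resumed in the 5′ UTR with an MHS of 378 bp in replicate 1 (chr1:6621796-6622173), listed as MHSs of 188 and 111 bp in replicate 2. An antisense long non-coding RNA gene (lncRNA), AT1G05473, lies within the 656-bp MHS, so that this stretch cannot be assigned to JAZ1 alone.

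JAZ2 lies on the minus strand at chr1:28148574-28150446. Its upstream kilobase was covered over 855 bp in replicate 1 and 782 bp in replicate 2, a level reached by 1.34% and 1.21% of genes. Unlike JAZ1, it had an MHS across the TSS in both replicates, of 300 bp (chr1:28150354-28150653) and 269 bp (chr1:28150345-28150613). Farther upstream, replicate 1 had the MHS of 1013 bp (chr1:28150799-28151811). Replicate 2 listed the same stretch as MHSs of 191 bp (chr1:28150826-28151016), 424 bp (chr1:28151020-28151443) and 251 bp (chr1:28151470-28151720). The midpoint of the 1013-bp MHS was at -859 bp relative to the TSS of JAZ2 and 615 bp from the limit of FAB1, the next gene upstream, which encodes an enzyme of fatty acid synthesis. The body of JAZ2 held no other MHS, and past its TTS lay an MHS of 781 bp in replicate 1 that was listed as MHSs of 340 and 208 bp in replicate 2.

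JAZ5 (AT1G17380) and JAZ6 (AT1G72450) are the next pair, and both genes had the upstream kilobase almost filled. JAZ5, on the minus strand at chr1:5955155-5957511, had 839 bp covered in replicate 1 and 951 bp in replicate 2. The value in replicate 2 was reached by 26 of the 27444 genes, which is 0.0947%, and that in replicate 1 by 1.57%. The MHS nearest the gene measured 733 bp in replicate 1 (chr1:5957622-5958354) and 858 bp in replicate 2 (chr1:5957546-5958403), and the former lay wholly inside the latter. Beyond it were shared MHSs of 106 bp (chr1:5958378-5958483) and 137 bp (chr1:5958419-5958555). As at JAZ1, neither replicate had the TSS base of JAZ5 inside an MHS. An MHS of 241 bp in the 5′ UTR was listed in replicate 1 and had no counterpart in replicate 2.

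JAZ6, on the minus strand at chr1:27273968-27276562, had 891 bp of the upstream kilobase covered in replicate 1, which 0.845% of genes reached, and 795 bp in replicate 2, which 1.03% reached. The cover came from a pair of MHSs in each replicate. The nearer measured 589 bp (chr1:27276575-27277163) and 564 bp (chr1:27276608-27277171), and the farther 535 bp (chr1:27277261-27277795) and 459 bp (chr1:27277332-27277790). The TSS base was again outside the MHSs of both replicates, and a shared MHS of 290 and 231 bp followed in the 5′ UTR. Over the whole window, JAZ6 had 47.6% and 37.8% of its bases inside MHSs, the highest of the family, where the median gene had 11.6% and 9.37%. A lncRNA gene, AT1G09307, lies under the nearer MHS.

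JAZ3 (AT3G17860), JAZ4 (AT1G48500) and JAZ9 (AT1G70700) form a clade of longer JAZ genes, and their upstream regions differed. JAZ3, on the plus strand at chr3:6119707-6123044, had 664 bp covered in replicate 1 and 512 bp in replicate 2, levels reached by 6.8% and 9.47% of genes. Replicate 1 listed MHSs of 578 bp (chr3:6118381-6118958), 93 bp (chr3:6118966-6119058), 189 bp (chr3:6119297-6119485) and 291 bp (chr3:6119577-6119867), the last across the TSS. Replicate 2 listed MHSs of 324 bp (chr3:6118431-6118754), 97 bp (chr3:6118869-6118965) and 484 bp (chr3:6119340-6119823). The 484-bp MHS joined what replicate 1 had as the 189-bp and 291-bp MHSs, and the 93-bp MHS had no overlap in replicate 2.

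JAZ4, on the plus strand at chr1:17931390-17934662, had the least cover of the family. It had 120 bp in replicate 1 and 29 bp in replicate 2, and 69.1% and 72.1% of genes had at least as much. A short MHS lay across the TSS in both replicates, of 74 bp (chr1:17931370-17931443) and 111 bp (chr1:17931361-17931471). The MHS of 100 bp just upstream of it in replicate 1 (chr1:17931241-17931340) was not in replicate 2. JAZ4 was also the gene that lost its shared upstream MHS when sites under 100 bp were left out, or when the TSS was taken from the transcript that starts farthest downstream.

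JAZ9, on the plus strand at chr1:26654529-26657350, had 323 and 364 bp covered, reached by 33.8% and 20.8% of genes. The MHSs were of 288 bp (chr1:26654196-26654483) and 332 bp (chr1:26654494-26654825) in replicate 1 and of 669 bp (chr1:26654165-26654833) in replicate 2. JAZ9 also had a shared intron MHS of 312 and 271 bp (chr1:26655525-26655836 in replicate 1), the only MHS of the family that was inside an intron of every annotated transcript and overlapped between replicates. Past the TTS it had a shared MHS of 714 bp in replicate 1 (chr1:26657290-26658003) and 654 bp in replicate 2 (chr1:26657380-26658033), which was nearer to JAZ9 than to any other gene. JAZ7 likewise had a shared MHS past its TTS that was nearest to it, of 200 bp in replicate 1 and 171 bp in replicate 2.

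JAZ7 (AT2G34600) and JAZ8 (AT1G30135) are short genes whose proteins lack the canonical degron, the stretch through which COI1 grips other JAZ proteins, and JAZ8 is known as a repressor that resists degradation. JAZ7, on the plus strand at chr2:14573030-14573952, had 140 bp of the upstream kilobase covered in replicate 1 and 60 bp in replicate 2. All of it came from an MHS across the TSS, of 299 bp (chr2:14572890-14573188) and 219 bp (chr2:14572970-14573188), which ended at the same base in both replicates. All 5 MHSs of the JAZ7 window in each replicate were shared, and JAZ2 was the only other gene of the family without an unshared MHS. JAZ8, on the plus strand at chr1:10596352-10597341, had no other annotated gene in its window. It had 343 and 352 bp covered. Replicate 1 listed MHSs of 77 bp (chr1:10595958-10596034), 265 bp (chr1:10596054-10596318) and 109 bp (chr1:10596351-10596459), and replicate 2 listed 176 bp (chr1:10595926-10596101) and 293 bp (chr1:10596176-10596468). Over its whole window, 10.2% and 9.4% of the bases were covered, the lowest of the family and close to the median gene.

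JAZ10 (AT5G13220) is known for alternative splicing of an intron within its Jas motif, which yields isoforms that resist degradation. It lies on the plus strand at chr5:4218786-4221077, and 161 bp of its upstream kilobase was covered in replicate 1 and 50 bp in replicate 2. An MHS lay across the TSS, of 192 bp (chr5:4218684-4218875) and 208 bp (chr5:4218736-4218943), and gave all of the cover in replicate 2. An MHS of 59 bp (chr5:4217899-4217957) was in replicate 1 only and gave the rest of the cover there. The TSS is overlapped by an antisense lncRNA gene, AT5G02045, so the MHS there belongs to both starts. Wider open chromatin lay farther out, with an MHS of 366 bp in replicate 2 (chr5:4217189-4217554) that was listed as MHSs of 174 and 184 bp in replicate 1. The midpoint of the 366-bp MHS was at -1415 bp relative to the TSS of JAZ10 and nearer to another gene, AT5G13210, at 463 bp.

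The TSS base was inside an MHS of both replicates at 7 of the 10 genes, where this held for 46.6% of all protein-coding genes. The exceptions were JAZ1, JAZ5 and JAZ6, which were among those with the widest upstream cover, and at each of them no MHS of either replicate held the base. JAZ2 and JAZ3 had both the wide upstream cover and an open TSS. Which genes were open at the TSS depended on the transcript. With the TSS of the transcript that starts farthest downstream, the number was again 7, but JAZ1 and JAZ6 gained the call and JAZ3 and JAZ4 lost it.

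The G-box, CACGTG, was then placed on this map, because it is the element bound by MYC2 and the sequence reads the same on both strands. The 10 windows held 19 G-boxes. Of these, 14 lay wholly inside MHSs of both replicates, which is 73.7%, against 34.9% of the 12589 G-boxes in the windows of all protein-coding genes. The JAZ windows were also more covered as a whole. The mean was 28.5% of bases in replicate 1 and 24.7% in replicate 2, against 13.7% and 11.2% over all genes. Within 1 kb upstream there were 11 G-boxes at 8 of the 10 genes, and 14.8% of all genes had any. JAZ4 and JAZ10 had none in this kilobase, and at JAZ10 the nearest upstream lay at -1273 bp relative to the TSS, inside the MHS of 366 bp named above. Of the 11 upstream G-boxes, 8 were inside MHSs of both replicates, which is 72.7%, and over all genes it was 53.3% of 4421. The mean upstream cover was likewise wider at the JAZ genes, as given above. Whether G-boxes lay inside MHSs more often than other sequence of the same regions was not tested.

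The 11 upstream G-boxes are shown with 10 bases on each side, read 5′ to 3′ on the strand of the gene with the G-box in capitals, since they are the stretches on which the counts above rest. The number after each name is the distance of the first base of the G-box from the TSS in bp, negative upstream.
JAZ1 at -844: catgataaaaCACGTGtcatatcgaa
JAZ2 at -66: taaattaaaaCACGTGttttaaatgt
JAZ2 at -671: ttaagttagaCACGTGtaaggtcgcg
JAZ3 at -140: taaaatagcgCACGTGcctcgccacg
JAZ3 at -82: cacgacgatgCACGTGcctttttaac
JAZ5 at -589: ctatttaaacCACGTGttttaatcaa
JAZ6 at -478: aacaatacttCACGTGtccttaaact
JAZ6 at -514: aagattccgaCACGTGttgacatcct
JAZ7 at -34: aagcattttaCACGTGcgtgaagaga
JAZ8 at -10: aaacattttcCACGTGagagaattga
JAZ9 at -366: tcaaaaatttCACGTGttatgaaatg

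The 3 upstream G-boxes outside the shared MHSs lay at the edges of MHSs. At JAZ3 the G-box at -140 was inside the 484-bp MHS of replicate 2 and fell between MHSs of replicate 1, 4 bp from the nearest. At JAZ8 the G-box at -10 was inside the 293-bp MHS of replicate 2 and missed the closest replicate 1 MHS by 3 bp. At JAZ9 the G-box at -366 had its first 2 bases outside the 669-bp MHS of replicate 2 and was 27 bp from an MHS of replicate 1. All of these gaps are shorter than a nucleosome.

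Longer stretches are given for the 5 members whose replicate 1 MHS nearest the TSS carried a G-box outside any annotated exon, because they show the open sequence around the element. Each is an unbroken part of that MHS, upstream of the TSS, outside annotated exons and up to 300 bases long. At JAZ6 a further exon-free part, nearer the TSS, is not shown. The stretches are read 5′ to 3′ on the strand of the gene, with the G-box and CACATG on either strand in capitals. They are chr1:28150447-28150653 for JAZ2, chr3:6119577-6119706 for JAZ3, chr1:5957948-5958247 for JAZ5, chr1:27277044-27277163 for JAZ6 and chr2:14572890-14573029 for JAZ7.
JAZ2: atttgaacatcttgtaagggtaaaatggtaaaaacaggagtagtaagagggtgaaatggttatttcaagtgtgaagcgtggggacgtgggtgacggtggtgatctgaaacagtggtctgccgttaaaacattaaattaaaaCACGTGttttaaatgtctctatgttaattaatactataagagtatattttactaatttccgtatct
JAZ3: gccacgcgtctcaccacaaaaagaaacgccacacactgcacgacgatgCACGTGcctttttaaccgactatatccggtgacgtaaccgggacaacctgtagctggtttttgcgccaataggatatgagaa
JAZ5: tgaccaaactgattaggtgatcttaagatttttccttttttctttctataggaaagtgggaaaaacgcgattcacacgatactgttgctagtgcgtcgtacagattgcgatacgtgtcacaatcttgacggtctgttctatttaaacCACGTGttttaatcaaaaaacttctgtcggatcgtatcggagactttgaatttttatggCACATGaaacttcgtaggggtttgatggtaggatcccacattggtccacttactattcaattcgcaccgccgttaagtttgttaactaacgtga
JAZ6: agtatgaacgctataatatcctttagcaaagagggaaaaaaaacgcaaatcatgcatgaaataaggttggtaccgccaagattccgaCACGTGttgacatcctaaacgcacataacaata
JAZ7: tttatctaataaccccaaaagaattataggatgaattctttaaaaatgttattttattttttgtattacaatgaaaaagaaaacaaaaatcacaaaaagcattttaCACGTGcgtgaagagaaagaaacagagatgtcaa

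The JAZ2, JAZ3 and JAZ7 stretches ran up to the TSS, and their G-boxes lay at -66, -82 and -34 bp. The JAZ5 stretch held a CACATG as well, the variant of the G-box that MYC2 is also known to bind. In promoters of 300 bp, from 250 bp before to 50 bp after the TSS, a G-box was present at 4 of the 10 genes, JAZ2, JAZ3, JAZ7 and JAZ8, and at 7.68% of all protein-coding genes. In 300-bp regions centred on the replicate 1 MHSs of the JAZ windows, 11 of 80 had a G-box (13.8%), where 7.78% of such regions at all protein-coding genes did. CACATG or its reverse complement CATGTG was in 21 of the 80 regions (26.2%), against 15.3%. A match of letters was counted here, and whether any factor was bound was not measured.

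The MHSs were then placed by their midpoint. In replicate 1, 41 of 80 MHSs had their midpoint upstream of the TSS (51.2%, 95% Clopper-Pearson interval 39.8 to 62.6), and in replicate 2 it was 34 of 61 (55.7%, 42.4 to 68.5). The share depends on the window, which reaches 3 kb upstream. It was 30.4% in replicate 1 with a window from 1 kb upstream and 23.1% over the MHSs nearest to the JAZ gene. Of the 41, 25 lay over 1 kb from the TSS, and the JAZ gene was the nearest gene for 1 of them. Only 39 of the 80 MHSs of replicate 1 and 28 of the 61 of replicate 2 had no other annotated gene nearer than the JAZ gene. Those of replicate 2 include an MHS whose midpoint lay inside both JAZ10 and AT5G02045.

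Inside the genes, the 5′ UTR had 8 MHSs in replicate 1, of which 7 were shared. A single MHS of 65 bp, at JAZ5 in replicate 1, had its midpoint in coding sequence, and replicate 2 had none there. In the 3′ UTR, 2 of 8 MHSs of replicate 1 were shared and their median length was 82 bp. JAZ10 contributed 3 of these, of 64, 74 and 67 bp, none of them shared. In JAZ3, JAZ4 and JAZ10, MHSs lay in stretches that are an intron in the first-numbered transcript and a UTR in another isoform. The shared ones at JAZ3 measured 73 and 137 bp in replicate 1, against 95 and 153 bp in replicate 2. None was shared at JAZ4. At JAZ10 the shared one was of 87 bp in replicate 1 (chr5:4220387-4220473) and 124 bp in replicate 2 (chr5:4220383-4220506).

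The MHSs that were shared by the replicates were the longer ones by their median. A longer MHS more easily meets another by 1 bp, and how much of the difference comes from this rule was not tested. Of the 80 MHSs of replicate 1, 55 overlapped replicate 2 (68.8%, 57.4 to 78.7), against 62.9% in the windows of all protein-coding genes. The 25 others had a median length of 74 bp, where the shared had 258 bp. Of MHSs of at most 100 bp, 10 of 28 were shared (35.7%), and of longer ones 45 of 52 (86.5%), against 26.7% and 82.8% at all protein-coding genes. In replicate 2 the short MHSs were shared in 5 of 11 cases (45.5%) and the longer in 46 of 50 (92%), where all protein-coding windows had 60% and 91.3%. In replicate 2, 51 of 61 overlapped replicate 1 (83.6%, 71.9 to 91.8), and the background was 87.3%. Intervals cover the counting of MHSs only. Replicate 2 listed no MHS of 75 bp or less in the JAZ windows, where replicate 1 listed 18 (22.5%). Over the windows of all protein-coding genes such MHSs were 0.345% of replicate 2 and 23.1% of replicate 1, so this is a difference between the lists and not one of the JAZ genes. In replicate 1 the JAZ-window MHSs that were not shared had a median A/T content of 71.2% and the shared ones 67%, and over all protein-coding windows it was 73.2% and 67%. In replicate 2 the values were 66.4% and 64.5% at the JAZ genes, but 63.6% and 65% over all protein-coding windows, where the direction was the opposite. MNase is known to cut more readily at A/T-rich DNA, and the part of this in the MHSs that were not shared was not tested.

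**Figure D3:**
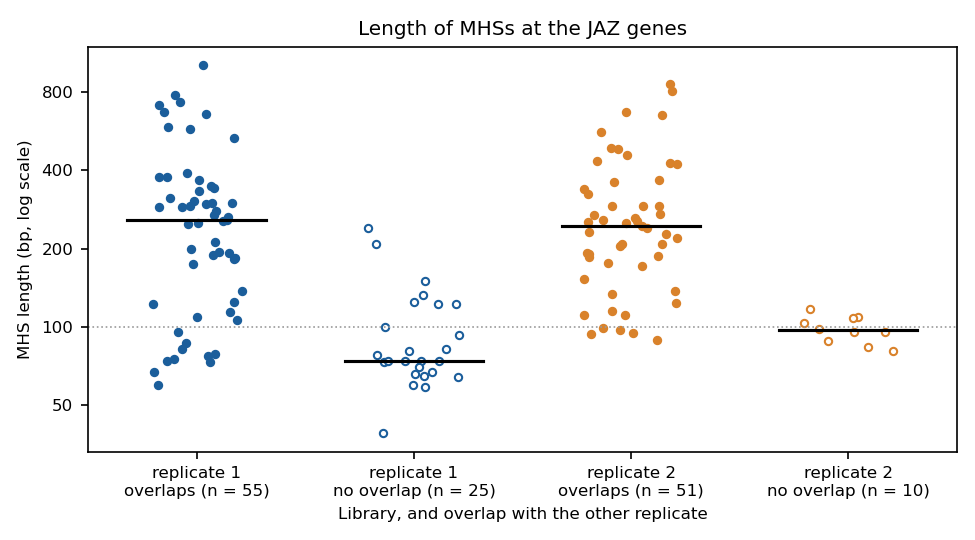
Length in bp (log scale) of each MHS in the JAZ windows, by replicate and by overlap with the other replicate, with the median as a black bar and 100 bp as a dotted line. Shared MHSs have medians of 258 and 245 bp, and those not shared 74 and 97 bp.

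The rest of the jasmonate pathway was read in the same way. Of 45 genes for perception, transcription, biosynthesis, turnover and response, 36 had a shared MHS within 1 kb upstream, where 70.4% of all protein-coding genes did. The TSS base was in MHSs of both replicates at 25, against 46.6%, and at least 500 bp was covered in each replicate at 5, against 8.56%. These counts lie near the shares over all genes and are no result about the list. The 5 were TPL, the TOPLESS corepressor, MED25, a Mediator subunit that works with MYC2, the transcription factors MYC4 and JAM1, and ACX1, a peroxisomal oxidase of jasmonate synthesis. All 7 genes of perception and repression had both the shared upstream MHS and the open TSS. COI1, the receptor subunit, had 9 MHSs in its window in replicate 1 and 3 in replicate 2, with 319 and 115 bp of the upstream kilobase covered.

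Among 11 transcription factors, 9 had a shared upstream MHS and 5 an open TSS. Over all protein-coding genes these shares were 70.4% and 46.6%, the values to set beside each group below. MYB21, a stamen regulator, had the most MHSs in its window in replicate 1, with 13. In replicate 2 MYB21 had 6, and ORA59 had the most with 9. Among 13 biosynthesis genes it was 11 and 9, and AOS, which encodes allene oxide synthase, had 11 and 9 MHSs. Among 10 genes for turnover of the hormone it was 8 and 4, and JOX2, a jasmonate oxidase, had 15 and 10 MHSs. Of the 4 response genes, 1 had a shared upstream MHS and none an open TSS. The groups hold few genes, and differences between them were not tested. PDF1.2, a defensin, had 3 and 2 MHSs in its window and none in the upstream kilobase, and THI2.1, a thionin, had no MHS in its window in either replicate.

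LOX3 and LOX4, lipoxygenases at the head of jasmonate synthesis, lie near JAZ5 and JAZ6 on the chromosome. LOX3 is 19811 bp from JAZ5 with 2 protein-coding genes between, and LOX4 is 31950 bp from JAZ6 with 6 between. LOX3 had 582 and 465 bp of its upstream kilobase covered and LOX4 had 528 and 360 bp, less than at the nearby JAZ gene in each replicate. The other TIFY genes, which share the ZIM domain, all had a shared upstream MHS, where 70.4% of all protein-coding genes did. At 1 of 6, against 8.56% of all protein-coding genes, at least 500 bp was covered in each replicate. This was JAZ12, with 648 and 511 bp. JAZ11 had 251 and 180 bp, and JAZ13 had 449 and 279 bp.

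**Figure D4:**
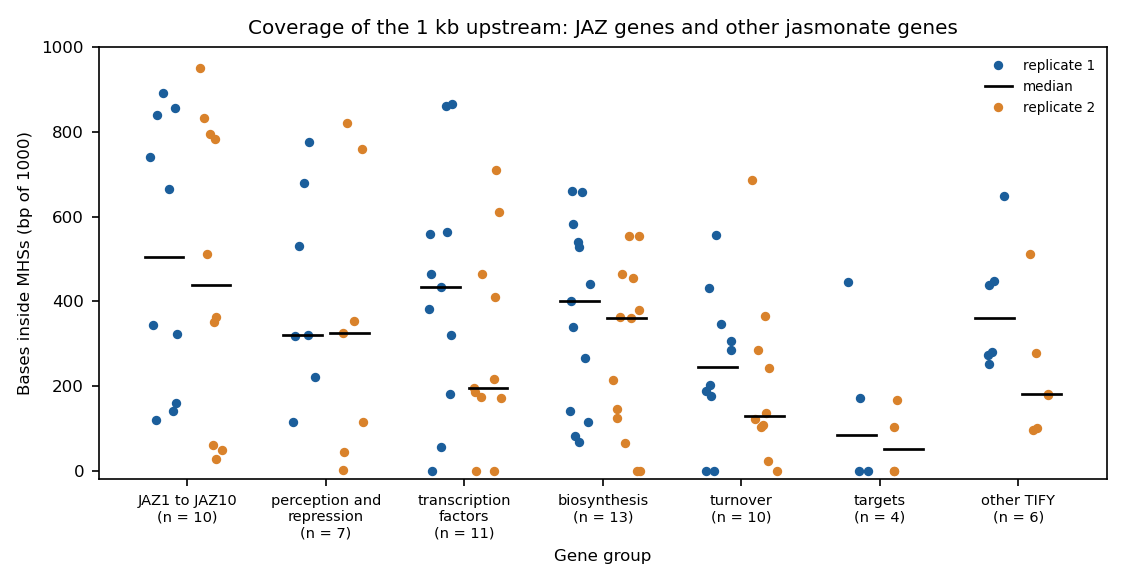
Bases of the 1 kb upstream of the TSS inside MHSs for JAZ1 to JAZ10 and for the other jasmonate genes by role, in replicate 1 (blue) and replicate 2 (orange). Each point is a gene and black bars are medians, which were 504 and 438 bp for the JAZ genes and between 52 and 433 bp for the other groups.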

How the data were processed

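MH-seq libraries were made from 2 samples of 2-week-old Col-0 seedlings. Per the labels and the study's methods, reads were trimmed with Cutadapt, aligned to TAIR10 with Bowtie2, filtered for mapping quality and full-length alignment, and MHSs were called with Jazz in each library by a Bayes factor and a zero-inflated Poisson model. Versions and the cut-off value are not given in the sources used here. The deposited lists hold the start (counted from 0) and end of each MHS on 5 chromosomes, with no score, signal or read count, so the depth behind an MHS is unknown from them and a weak site next to the cut-off can be listed in 1 library and missed in the other. The study calls the second library a biological replicate. It reports more reads for that library, a larger share of them from the chloroplast and a smaller fraction of reads in peaks. Whether this bears on the differences between the lists was not tested.

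Positions were checked against the RefSeq TAIR10.1 genome with 19 synthesised sites of the study, all 19 of which read the same sequence, and no MHS ran past a chromosome end. Windows, overlaps (at least 1 bp), covered bases, features at the MHS midpoint and motif matches were computed with Python 3.11.15 and numpy 2.4.6, tested on 200 simulated interval sets, and the overlap counts over whole lists equalled those of bedtools 2.31.1. The TSS was the annotated gene limit. Background values come from all 27444 protein-coding genes.

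The members, the pathway lists, the 500 bp limit and the motifs were chosen with earlier results of these data known. With 2 libraries of 1 group no test between conditions was made and no p-value is given. Named were all 10 members with every MHS in the 1 kb upstream, per pathway role the gene with the most MHSs in replicate 1 and any gene with none, LOX3, LOX4, JAZ11, JAZ12 and JAZ13. The 5 pathway genes with 500 bp covered were named after their values were seen.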

Additional observations from a re-analysis of the deposited data

How the results depend on the processing

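Over 43 alternative values for 10 results, 27 stayed within the limits set for each result and 16 moved. A count was held to have moved beyond 1.5 times, a share outside its 95% Clopper-Pearson interval, and a length or cover by more than the SD of the replicates (20.9 bp and 24.7 bp). This SD comes from the replicate values themselves. The median length and upstream cover without replicate 1, both among the 16, were therefore bound to count as moved. With MHSs under 100 bp left out, the 80 MHSs of replicate 1 fell to 53, their shared portion became 84.9%, their median length 265 bp in place of 178 bp, and mean upstream cover 483 bp in place of 508 bp. Merging MHSs at most 50 bp apart gave a median of 248 bp. Counting only MHSs nearest to the JAZ gene left 39 in replicate 1 and 28 of 61 in replicate 2, with a median length of 122 bp, 6 in place of 12 with a G-box inside, and 23.1% in place of 51.2% upstream. In a window from 1 kb upstream, 30.4% were upstream. A reciprocal overlap of at least 50% gave 46.2% shared in replicate 1 and 60.7% in replicate 2. With CACATG on either strand added to the G-box, 24 of the 80 MHSs held a match. Without replicate 1, values from replicate 2 were 208 bp for the median length, 473 bp for upstream cover, 13 MHSs with a G-box, 55.7% upstream, 10 genes with an upstream MHS and 7 with an open TSS, the last 2 also without replicate 2. The cause of the differences between replicates was not tested.

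No paired analysis was possible because both libraries belong to 1 group. The alternative with the TSS of the transcript that starts farthest downstream was chosen after seeing the data, and gave 9 genes with a shared upstream MHS and 7 with an open TSS.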

Other observations

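Among the upstream G-boxes of the JAZ genes, those of JAZ2 at -66 and JAZ5 at -589 shared the longest run of bases, 13 bp when JAZ5 was read on the opposite strand, and the comparison was made after the sequences were seen. The run, which holds the G-box at its end, is shown because it was the longest. JAZ2 and JAZ5 are not each other's closest paralogs.
shared run: attaaaaCACGTG
It was found at 4 of the 4421 G-boxes within 1 kb upstream of all protein-coding genes (0.0905%), on either strand, with the JAZ2 and JAZ5 G-boxes among the 4. Nearly as long a run, of 12 bp, was shared by the paralogs JAZ1 and JAZ2, and JAZ1 and JAZ5 shared 11 bp. At JAZ3 the pair of upstream G-boxes shared a run of 10 bp on the same strand.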
